A study of Mus musculus with 20 samples.

Results

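The refeeding response of livers that carry the K556R form of Prox1 was measured by RNA sequencing in 10 libraries, 5 from refed and 5 from fasted mice, out of 20 libraries in the series. The libraries were taken by their genotype and feeding labels, and the same count table held 10 wild-type libraries, 5 fasted and 5 refed. Prox1 encodes a homeodomain transcription factor of hepatocytes. In the K556R form a lysine that can carry the small protein SUMO is replaced by arginine. All mice were males on chow. Cre recombination switched on the K556R form in hepatocytes when the mice were 8 weeks old, and livers were taken 11 weeks later at Zeitgeber times 15 to 17, in the dark phase. The sources used here do not give the Cre driver, the strain or the lengths of fasting and refeeding. The titles call the genotypes Ctrl and Cre, so an effect of Cre and an effect of K556R on the response cannot be told apart.

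The K556R fasted libraries comprised 4 of batch 1 and 1 of batch 2, and the K556R refed libraries 2 of batch 1 and 3 of batch 2, as the labels name the batches. Libraries are named by repeat number and batch. Values per library are given in the order 1_b1, 2_b1, 3_b1, 4_b1 and 1_b2 for fasted livers and 1_b1, 2_b1, 1_b2, 2_b2 and 3_b2 for refed livers. The labels do not say how repeats relate to mice, so a p-value here reflects only how far these libraries spread, which may be technical.

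During a fast, liver cells release glucose made from amino acids and lactate, burn fatty acids and export ketone bodies, under glucagon, glucocorticoids and the fatty acid receptor PPARA, while FOXO factors are active in the nucleus. After a meal, insulin shuts FOXO factors out of the nucleus and raises the SREBP factors, which drive the synthesis of fatty acids and sterols, and glucose acts through ChREBP. Secretory cells also enlarge their machinery for folding and glycosylating proteins when a meal restores protein synthesis.

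Total counts of the 10 libraries ranged from 33746054 to 50647297, and 13894 of 29915 genes passed the low-count filter. Levels are given as CPM, the read count of a gene scaled to the TMM-adjusted size of its library. Hepatocyte markers summed to 133400 to 140600 CPM in fasted and 103600 to 118400 CPM in refed livers. Most of that sum was 1 gene, Alb, at 97730 to 107500 CPM in fasted and 76090 to 88680 CPM in refed livers. Of 12 markers of pancreas, fat and muscle, Cpa1, Pnlip, Ins2, Lep and Ckm were at 0 in all 10 libraries and the rest summed to 0.22 to 2.43 CPM. Fasted 1_b1 and refed 1_b1 stood apart from the others of their groups. The 15 proliferation genes summed to 237.8 CPM in refed 1_b1 against 67.5 to 79.3 CPM in the other refed libraries, and to 102.2 CPM in fasted 1_b1 against at most 81.5 CPM. The 11 lymphocyte markers summed to 19.8 CPM in refed 1_b1 against at most 9.44 CPM, and to 16.7 CPM in fasted 1_b1 against at most 7.41 CPM. For many lists below, though not all, the counts are therefore also given without these 2 libraries. In bulk liver, fewer cells of a type and less RNA per cell cannot be told apart.

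**Figure D1:**
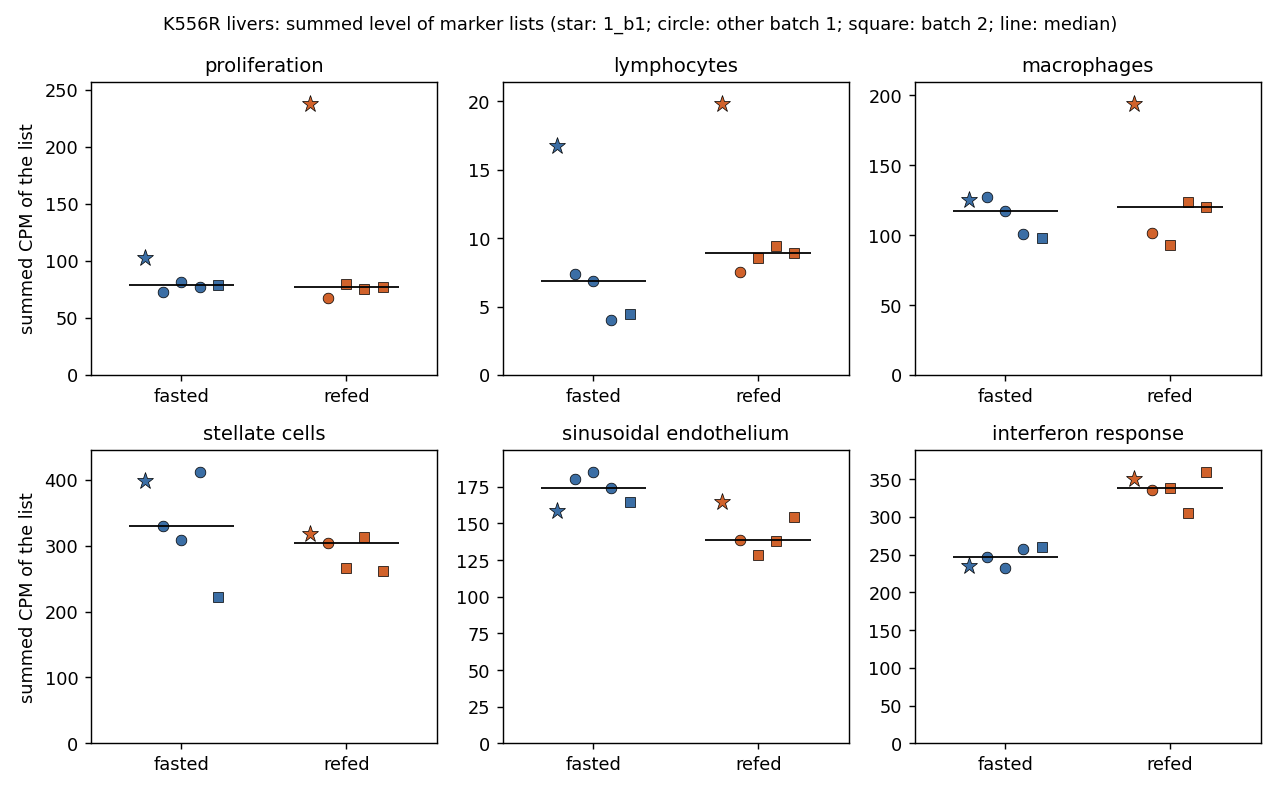
Summed level (CPM) of 6 gene lists in each K556R library, fasted in blue and refed in orange; the star is library 1_b1, circles are the other batch 1 libraries, squares batch 2, and the line is the median of 5. Refed 1_b1 reached 237.8 CPM for proliferation genes, while the interferon list lay between 304.5 and 359 CPM in refed and 232.7 and 260.5 CPM in fasted libraries.

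Prox1 itself was counted first. It measured 84.99, 93.98, 126, 109.5 and 108 CPM in the fasted and 80.8, 57.7, 79.5, 70.1 and 89.4 CPM in the refed libraries. The groups overlapped, with refed 3_b2 above fasted 1_b1. Prox1 fell on refeeding by 0.54 on the log2 scale (SE 0.150, adjusted p = 0.00708), and by 0.68 without the 2 libraries that stood apart. Batch 1 alone gave −0.58 (adjusted p = 0.0624) and batch 2 alone, with 1 fasted K556R library, −0.44. In wild type the change was −0.75, and the difference between the genotypes in this change was 0.21 (SE 0.205, unadjusted p = 0.322). The Prox1 level itself was lower in K556R. Mean CPM, without batch adjustment, were 104.5 against 184.6 in wild type when fasted, and 75.5 against 110.1 when refed. Effects of this lower level, of Cre and of K556R on the response cannot be told apart. The GENCODE annotation of GRCm38 places the gene on chromosome 1 at 190118035 to 190170714, minus strand. The counts are per gene, so these levels cannot show which form of Prox1 was expressed and do not check the genotype labels.

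Refeeding moved the levels of 5543 genes in K556R liver. Of the 13894 genes tested, 2728 rose (19.6%) and 2815 fell (20.3%) at an adjusted p under 0.05, and the median change over all genes tested was 0.01 on the log2 scale. A list with about 1 in 5 of its genes called in a direction is thus near the background. Several counts given further on were near or below it in either direction. These were glycogen, hepatokine, NRF2, ribosome biogenesis, proteasome, integrated stress response, ketogenesis, acute-phase and male-biased genes, and stellate and lymphocyte markers. A change of at least 2-fold was reached by 514 genes that rose (3.7%) and 436 that fell (3.14%), and a change of at least 4-fold by 76 and 100 genes. The 5 refed and 5 fasted libraries did not overlap for 3593 of the 5543 called genes, and for 764 of the 950 called genes with at least a 2-fold change. Over all 13894 genes tested, all refed libraries lay above all fasted ones for 1777 genes and below them for 1955. Overlap and calls come from the same counts, so a lack of overlap is no separate support for a call. Without fasted 1_b1 and refed 1_b1, 2580 genes rose and 2626 fell, and 4781 of the 5543 calls were made again in the same direction.

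Within batch 1 alone, with 4 fasted and 2 refed libraries, 2033 genes rose and 2182 fell. Within batch 2 alone 1355 rose and 1347 fell. That batch holds 1 fasted K556R library, which is assumed there to vary like the others. Of the 5543 genes called over both batches, 0 had the opposite sign in batch 1, and 76 of the 5539 that could be fitted had it in batch 2. The calls were made from these same batches together, so agreement in sign is no separate support for them. A fit of the 10 K556R libraries without wild type called 2233 genes higher and 2278 lower.

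**Figure D2:**
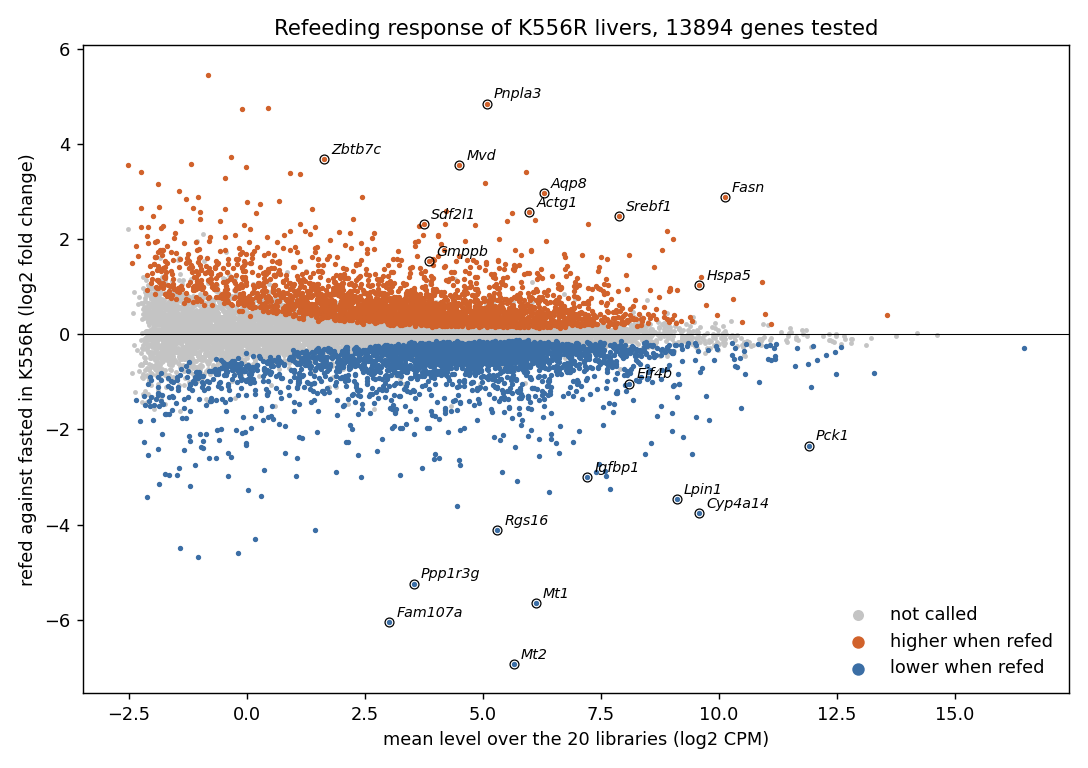
Log2 fold change of refed against fasted K556R livers for 13894 genes against their mean level in log2 CPM; orange genes were called higher, blue genes lower and grey genes were not called. The extremes among the circled genes are Mt2 at −6.93 and Pnpla3 at 4.84, and Eif4b, at −1.04, has the lowest p among the genes that fell at least 2-fold.

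Genes of glucose production and of insulin and FOXO signalling that changed in refed K556R liver all fell. Of 13 measured gluconeogenic genes, 6 fell and none rose (median −0.32), and of 14 genes of the insulin and FOXO list, 10 fell and none rose (median −0.75). Without the 2 libraries that stood apart the counts were 7 and 10. Pck1, the cytosolic phosphoenolpyruvate carboxykinase that commits carbon to glucose, measured 4871, 5934, 6961, 7276 and 6344 CPM in fasted and 1530, 874, 597, 691 and 2393 CPM in refed libraries. Every refed library lay below every fasted one, with refed 3_b2 the highest and refed 1_b2 the lowest of its group. The fall of Pck1 was 2.34 on the log2 scale (SE 0.335, adjusted p = 2.88e-05), with −2.38 in batch 1 and −2.36 in batch 2, where the adjusted p was 0.319. G6pc, the glucose 6-phosphatase of the last step, fell by 1.30 (adjusted p = 0.00358), with a fasted range of 629.5 to 1386 CPM and a refed range of 252 to 647 CPM, with refed 3_b2 inside the fasted range. Got1, the cytosolic aspartate aminotransferase, fell by 2.02 (adjusted p = 5.81e-06), and its groups did not overlap.

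Igfbp1, a secreted binding protein for insulin-like growth factors that insulin represses, measured 344, 176, 292, 319.5 and 104 CPM in fasted and 43.9, 18.3, 11.8, 11.99 and 29.6 CPM in refed livers. Fasted 1_b2 was the lowest fasted library and still above all refed ones. The fall was 3.00 on the log2 scale (SE 0.574, adjusted p = 0.000543). Foxo1, the factor that insulin excludes from the nucleus, measured 90.1, 86.7, 111, 97.6 and 79.9 CPM when fasted and 33.5, 29.8, 33.8, 34.4 and 37.3 CPM when refed, a fall of 1.42 (adjusted p = 1.77e-08) without overlap. The insulin receptor gene Insr fell by 0.58 (adjusted p = 2.54e-06), and Irs2, which couples the receptor to its kinases, by 1.62 (adjusted p = 0.00337). Klf15, a factor that favours amino acid use in fasting, fell by 0.87 (adjusted p = 0.000213), and Ccng2, a cyclin gene known as a FOXO target, by 1.43 (adjusted p = 5.33e-09). The 4 members of the insulin and FOXO list that were not called were Pdk4 at −0.75, Sesn1 at −0.05, Sesn3 at 0.22 and Cited2 at 0.36.

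**Figure D3:**
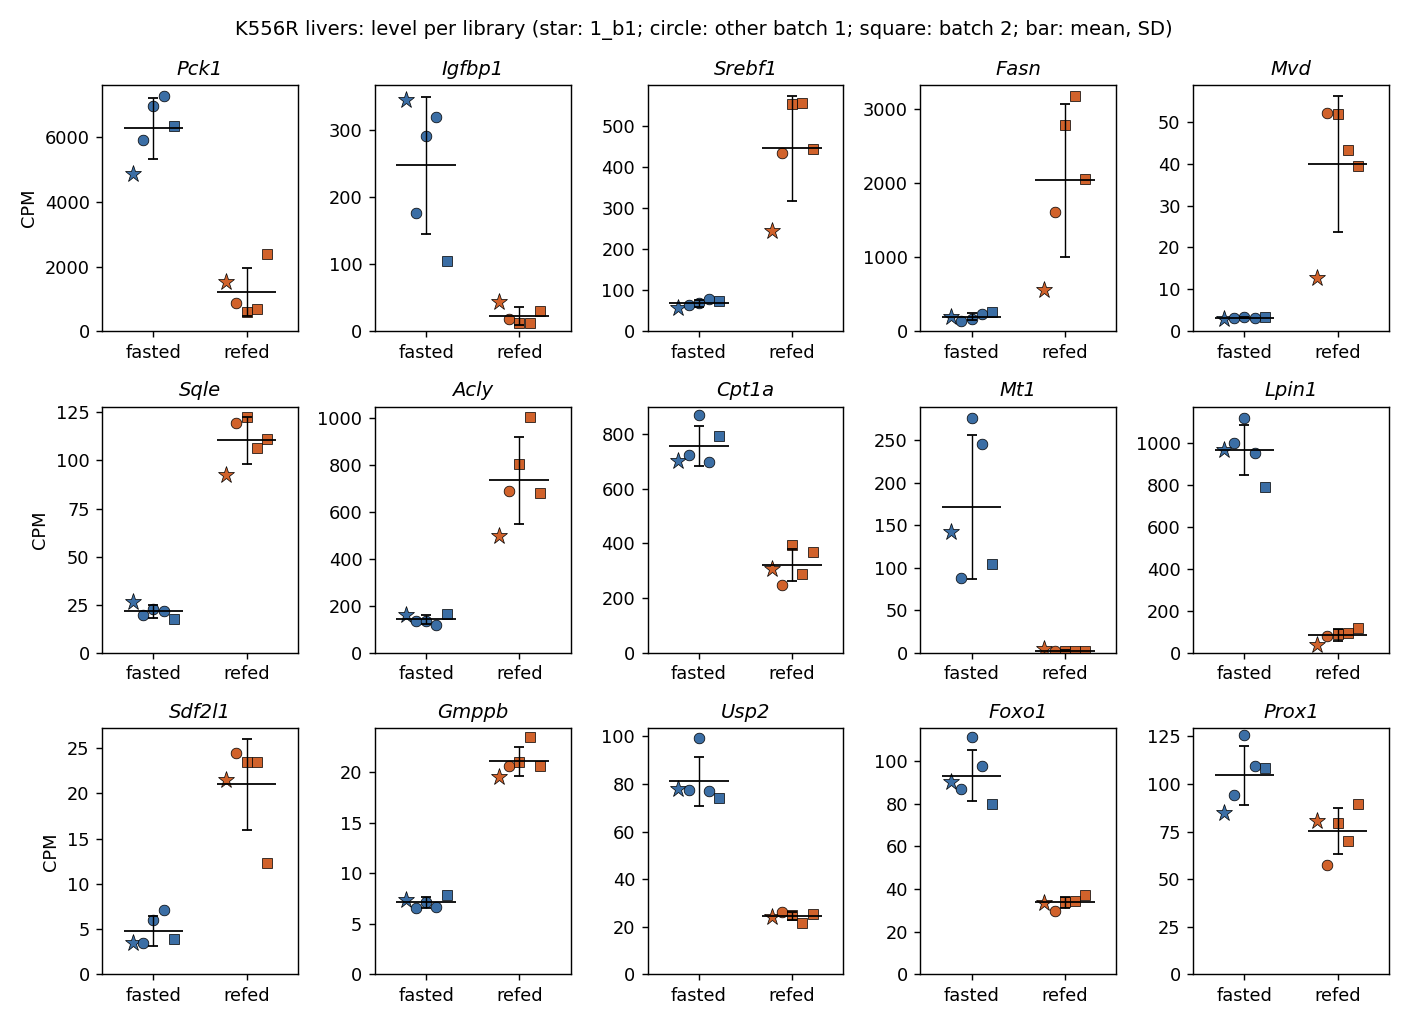
Levels in CPM of 15 genes in each K556R library, fasted in blue and refed in orange; stars are library 1_b1, circles the other batch 1 libraries, squares batch 2, and the bars are the mean and SD of 5. The fasted and refed libraries do not overlap in these panels except for Prox1.

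Among the deepest falls were the metallothioneins and other genes known to respond to glucocorticoids or cyclic AMP. Of 15 measured genes of that list 8 fell, each at least 2-fold, and 1 rose (median −1.18), with the same counts without the 2 libraries that stood apart. Mt1, a metallothionein that binds zinc and copper, measured 142, 88.2, 276, 245 and 104 CPM in fasted and 4.34, 2.39, 2.33, 1.57 and 2.64 CPM in refed livers. Mt2 went from 96.1, 65.8, 238, 173 and 77.2 CPM to 1.67, 0.878, 0.237, 0.229 and 0.896 CPM. For both genes each refed library lay far below each fasted one, and fasted 3_b1 and 4_b1 were the highest. Mt1 fell by 5.66 on the log2 scale (SE 0.567, adjusted p = 1.19e-06), to a ratio of 0.0198. Mt2 fell by 6.93 on the log2 scale (SE 0.651, adjusted p = 6e-07), to a ratio of 0.00822. The 2 genes are close paralogs, and the rule by which the authors counted shared reads is not known, so the split between them is uncertain.

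Fkbp5, a chaperone of steroid receptors and a standard readout of glucocorticoid action, measured 318, 268, 380.1, 383 and 321 CPM in fasted and 37.2, 34.1, 59.4, 36.8 and 51.2 CPM in refed libraries. It fell by 2.90 on the log2 scale (SE 0.285, adjusted p = 5.94e-07) without overlap. Zbtb16, a zinc finger factor, fell by 3.08 (adjusted p = 1.01e-05). Per1, a clock repressor that glucocorticoids induce, fell by 1.76 (adjusted p = 7.85e-06), and Tsc22d3, which encodes the glucocorticoid-induced leucine zipper protein, by 1.18 (adjusted p = 0.000530). Klf9 fell by 1.35 (adjusted p = 2.4e-09) and Cebpb, a factor of the fasting and acute-phase responses, by 1.96 (adjusted p = 0.000233). The glucocorticoid receptor gene Nr3c1 stood at 0.10 and was not called. The 1 member that rose was Pde4b, a phosphodiesterase that degrades cyclic AMP, at 1.57.

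Most genes of sterol synthesis rose. Of its 20 genes, all measured, 17 rose and none fell (median 1.37), and 19 rose without the 2 libraries that stood apart. Among those not called were Tm7sf2, a sterol reductase, at 0.10 and Hsd17b7, a sterol dehydrogenase, at 0.35. Mvd, which decarboxylates mevalonate diphosphate, measured 3.02, 3.18, 3.35, 3.08 and 3.42 CPM in fasted and 12.6, 52.1, 51.9, 43.3 and 39.4 CPM in refed libraries. The fasted values were close together, and refed 1_b1 was the lowest refed library. Mvd rose by 3.55 on the log2 scale (SE 0.310, adjusted p = 1.96e-07), and by 3.88 without the 2 libraries. Sqle, the squalene epoxidase, went from 26.4, 19.6, 22.8, 21.5 and 17.4 CPM to 92.3, 119.6, 123, 106 and 111 CPM, a rise of 2.41 (adjusted p = 1.91e-06) without overlap. Idi1, an isomerase of the isoprenoid precursors, rose by 1.39 (adjusted p = 0.000508), the sterol desaturase gene Sc5d by 1.41 (adjusted p = 2.14e-07), and Dhcr7, which makes the last reduction to cholesterol, by 1.18 (adjusted p = 5.19e-05). Hmgcs1, a cytosolic synthase at the entry of the pathway, rose by 2.30 (adjusted p = 0.00109), but its levels were only 0.0955 to 0.436 CPM in fasted and 0.761 to 3.29 CPM in refed libraries. These levels are low for liver, and the annotation behind the counts, which may cover only part of Hmgcs1, is not given in the sources used here. Without refed 2_b1 the rise was 1.56.

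Genes that control the SREBP factors did not move as a block: 5 of 11 rose and 3 fell (median 0.18). Srebf1, which encodes the SREBP1 factors, measured 57.4, 63.3, 68.2, 78.1 and 74.1 CPM in fasted and 243, 433, 553, 555 and 442 CPM in refed livers. It rose by 2.48 on the log2 scale (SE 0.203, adjusted p = 6.16e-08) without overlap, with refed 1_b1 the lowest of its group. Srebf2, the sterol-responsive paralog, stood at 0.18 and was not called. Insig1 and Insig2 encode proteins that hold SREBP precursors in the endoplasmic reticulum. Insig1 rose by 1.77 (adjusted p = 4.17e-09) and Insig2 fell by 0.85 (adjusted p = 0.00280).

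Promoter windows were read for genes of these 2 lists, because SREBP factors bind the sterol element TCACNCCAC and E-boxes CACGTG. The RefSeq table for GRCm38.p6 gives 250 bases before and 50 after each start, and it matched 23 of the 31 listed genes. On either strand the sterol element stood in 1 of the 23 windows (4.35%, against 1.44% of 27025 genes in the table). The E-box stood in 5 of 23 (21.7%, against 8.09% of all). The 5 were Dhcr7, Hsd17b7, Insig1, Sc5d and Scap, of which Hsd17b7 and Scap were not called. Shown are the windows of genes that rose, with the motif in capitals; Hmgcs1 is shown over 250 bases and the E-boxes with 25 bases on either side. Hmgcs1 lies at chr13:119690101-119690350 on the plus strand, Insig1 at chr5:28071286-28071341 on the plus strand, Sc5d at chr9:42264368-42264423 on the minus strand and Dhcr7 at chr7:143823210-143823265 on the plus strand, with the motif 137, 101, 98 and 164 bases before the RefSeq start. All are printed 5′ to 3′ on the strand of the gene:
Hmgcs1: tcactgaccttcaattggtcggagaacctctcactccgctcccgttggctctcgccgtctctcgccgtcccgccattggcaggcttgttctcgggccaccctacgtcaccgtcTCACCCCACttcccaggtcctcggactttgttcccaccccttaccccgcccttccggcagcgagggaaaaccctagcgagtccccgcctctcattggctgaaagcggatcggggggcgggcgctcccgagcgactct
Insig1: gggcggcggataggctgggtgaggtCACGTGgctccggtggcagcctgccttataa
Sc5d: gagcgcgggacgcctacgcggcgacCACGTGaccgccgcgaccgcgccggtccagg
Dhcr7: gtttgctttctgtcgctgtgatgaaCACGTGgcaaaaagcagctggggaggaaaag
The GENCODE annotation starts Dhcr7 earlier, at 143823145, so by that annotation the Dhcr7 window lies inside the gene. A match is a description of the letters, and no binding was measured. Other motifs were read in the same way. The cyclic AMP element TGACGTCA stood in 1 of 11 gluconeogenic windows (9.09%, against 2.03% of all). The FOXO core GTAAACA stood in 1 of 11 windows of the insulin and FOXO list (9.09%, against 4.05%), and the unfolded protein response element TGACGTGG in 0 of 19 windows of the folding list (against 0.714%). The E-box stood in 4 of 15 clock gene windows (26.7%).

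Most genes of fatty acid synthesis rose, though not all. Of 15 genes 9 rose, 1 fell and 5 were not called (median 0.90), and 10 rose without the 2 libraries that stood apart. Fasn, the fatty acid synthase, measured 185, 138, 168, 234 and 261 CPM in fasted and 551, 1609, 2782, 3164 and 2055 CPM in refed libraries. Refed 1_b1 was the lowest refed library, and all 5 lay above the fasted ones. Fasn rose by 2.88 on the log2 scale (SE 0.281, adjusted p = 4.63e-07), a 7.34-fold change. Acly, which makes cytosolic acetyl-CoA from citrate, went from 163, 136, 134, 119.5 and 164 CPM to 499.5, 689, 804, 1005 and 681 CPM, a rise of 2.17 (adjusted p = 3.19e-08) without overlap. Pnpla3, a lipase-like protein of lipid droplets and a known SREBP1 target, went from 1.11, 1.68, 0.826, 1.74 and 2.03 CPM to 10.9, 34.7, 107, 119 and 55.4 CPM. Its rise of 4.84 on the log2 scale (SE 0.680, adjusted p = 3.3e-05) was the largest among genes with a mean of at least 1 log2 CPM and no overlap.

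The elongase gene Elovl6 rose by 1.53 (adjusted p = 6.53e-05), and Mid1ip1, which promotes acetyl-CoA carboxylase assembly, by 2.55 (adjusted p = 3.84e-08). Thrsp, a lipogenic partner of Mid1ip1, rose by 1.21 (adjusted p = 0.000652), with a fasted range of 227 to 510.5 CPM and a refed range of 285 to 1555 CPM, with refed 1_b1 inside the fasted range. Scd1, the stearoyl-CoA desaturase, measured 8277, 9723, 7677, 8673 and 16920 CPM in fasted and 12040, 12270, 21280, 20170 and 16630 CPM in refed libraries. Fasted 1_b2 exceeded 3 refed libraries, and the rise was 0.41 (adjusted p = 0.00905). Me1, malic enzyme, stood at 0.17 (adjusted p = 0.521), at −0.15 in batch 1 and 0.43 in batch 2. The member that fell was Fads2, a desaturase of polyunsaturated fatty acids, at −0.38. Fads1, Acacb, Slc25a1 and Elovl5 were not called.

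Genes of glucose entry and glycolysis split. Of 19 genes 6 rose and 3 fell (median 0.11), and 3 rose when refed 2_b1 was left out. Mlxipl, which encodes ChREBP, rose by 1.17 (adjusted p = 0.000309), with a fasted range of 6.24 to 14.3 CPM and a refed range of 20.7 to 31.2 CPM. Pklr, the liver pyruvate kinase, rose by 0.47 (adjusted p = 0.0264), and was not called without fasted 1_b1, 3_b1 or 1_b2 or refed 2_b1 or 2_b2 (adjusted p 0.0533 to 0.0867). Txnip, an inhibitor of glucose uptake that ChREBP is known to induce, fell by 2.98 on the log2 scale (SE 0.397, adjusted p = 1.68e-05), with a fasted range of 158 to 525 CPM and a refed range of 28.8 to 53.2 CPM. Pfkfb3, which makes the activator of phosphofructokinase, fell by 1.97 (adjusted p = 1.24e-05), with a fasted range of 14.7 to 38.6 CPM and a refed range of 5.35 to 7.08 CPM without overlap.

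Of 12 glycogen genes 2 rose and 2 fell, but only 1 rose without fasted 1_b2, and only 1 fell on removal of any 1 of 9 libraries, among them fasted 1_b1, 2_b1 and 3_b1 and refed 1_b1, 2_b1 and 3_b2 of K556R and 3 refed wild-type libraries. Ppp1r3g, which targets protein phosphatase to glycogen, measured 12.4, 8.88, 15.6, 13.6 and 3.65 CPM in fasted and 0.241, 0.154, 0.0475, 0.115 and 0.328 CPM in refed livers. The groups were widely apart, with fasted 1_b2 the lowest fasted library. The fall was 5.24 on the log2 scale (SE 0.907, adjusted p = 0.000224), and −5.01 without the 2 libraries that stood apart.

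**Figure D4:**
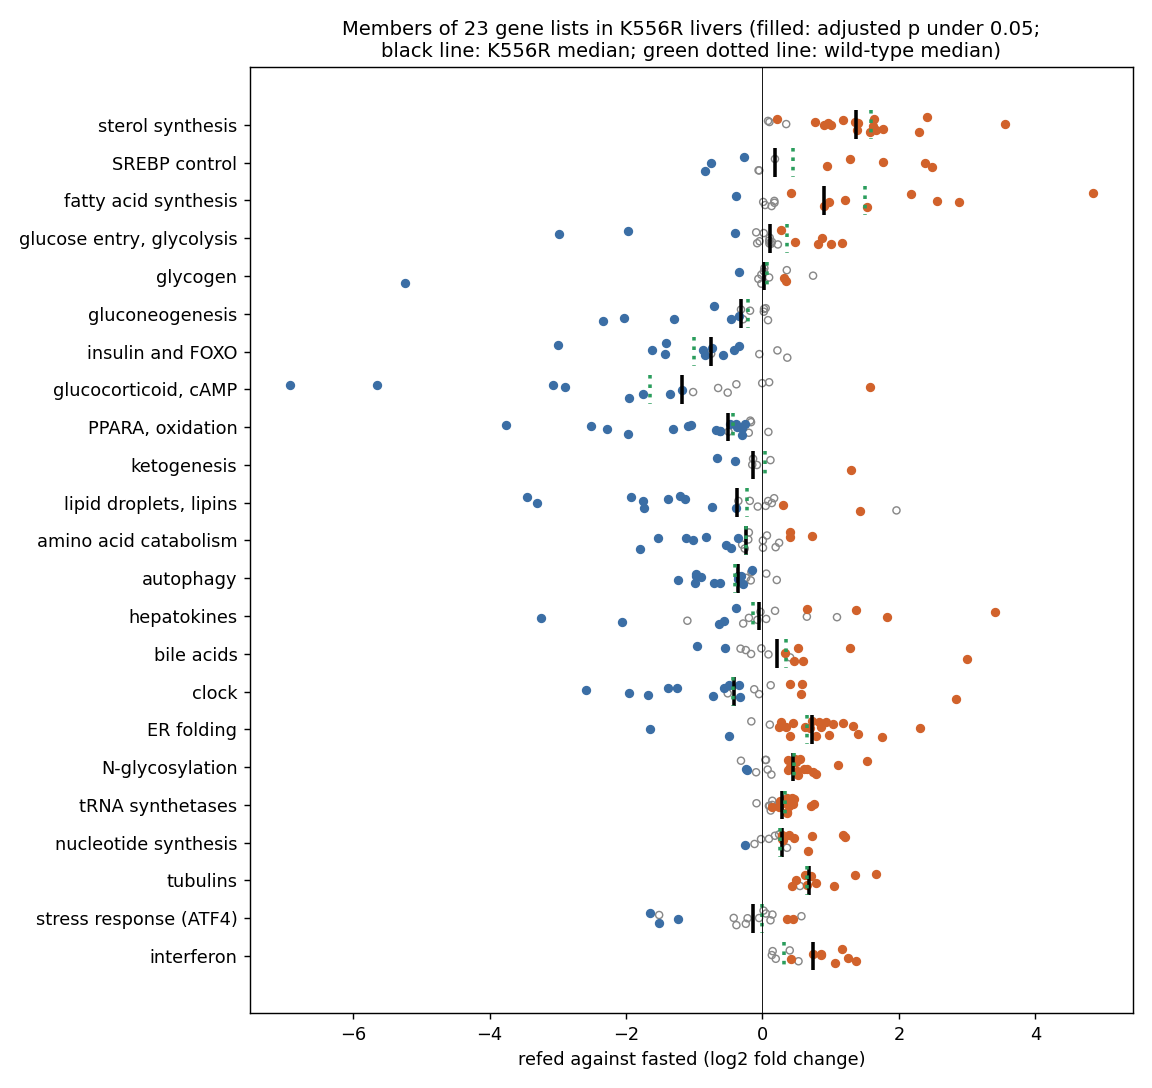
Log2 fold change of each measured member of 23 lists in K556R livers; filled points passed an adjusted p of 0.05, orange higher and blue lower, the black line is the K556R median and the green dotted line the wild-type median. The sterol synthesis median stands at 1.37 and that of the glucocorticoid and cyclic AMP list at −1.18.

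Most genes of fatty acid oxidation fell. Of 21 genes of the PPARA list 16 fell and none rose (median −0.50), and 15 fell without the 2 libraries that stood apart. Cpt1a, which carries acyl groups into mitochondria and sets the pace of oxidation, measured 699, 722, 868, 697 and 791 CPM in fasted and 306, 249, 392, 287 and 369 CPM in refed libraries. It fell by 1.31 on the log2 scale (SE 0.105, adjusted p = 3.18e-08) without overlap. Ppara fell by 1.09 (adjusted p = 2.04e-08), with a fasted range of 603 to 783 CPM and a refed range of 288 to 384 CPM. Cyp4a14, an omega-hydroxylase of fatty acids that PPARA induces, went from 1587, 1839, 1421, 2000 and 2399 CPM to 108, 111, 192, 165 and 107 CPM. The groups were far apart, and the fall was 3.75 on the log2 scale (SE 0.402, adjusted p = 1.78e-06). Cyp4a10 fell by 2.51 (adjusted p = 5.01e-07) and Acot1, a cytosolic acyl-CoA thioesterase, by 2.28 (adjusted p = 1.86e-05). Cyp4a10 and Cyp4a14 belong to a family with shared sequence, so their separate values are uncertain. The members not called were Cpt2, Acaa1b, Acaa2, Vnn1 and Fabp1.

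Of 7 ketogenesis genes 2 fell and 1 rose, and 1 fell without refed 2_b1. Slc16a6, a transporter linked to ketone body export, rose by 1.30 (adjusted p = 7.29e-06), with a fasted range of 3.46 to 5.62 CPM and a refed range of 9.72 to 15.2 CPM without overlap. Slc16a7, a monocarboxylate transporter, fell by 0.41.

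Of 20 genes of lipid droplets and triglyceride handling 10 fell and 2 rose (median −0.37), and 9 fell without the 2 libraries that stood apart. Lpin1, a phosphatidate phosphatase that also assists PPARA, measured 965, 998, 1116, 949 and 786 CPM in fasted and 38.5, 79.2, 87.7, 92.9 and 116 CPM in refed livers. Every refed library was far below the fasted ones, and refed 1_b1 was the lowest. Lpin1 fell by 3.46 on the log2 scale (SE 0.288, adjusted p = 9.7e-08). The droplet coat genes Plin4, Plin5 and Plin2 fell by 3.31 (adjusted p = 1.01e-05), 1.93 (adjusted p = 5.43e-06) and 0.74 (adjusted p = 0.00664). Pnpla2, the adipose triglyceride lipase, fell by 1.74 (adjusted p = 2.97e-07), with a fasted range of 84.7 to 157 CPM and a refed range of 27.9 to 42.5 CPM. G0s2, the inhibitor of that lipase, fell by 1.20 (adjusted p = 0.0176), and the adjusted p was 0.0604 without refed 1_b1 and 0.0985 without fasted 1_b2. Cidec, a droplet fusion protein, fell by 1.38 (adjusted p = 0.0412), and lost its call on removal of any 1 of 7 libraries (fasted 1_b1, 2_b1, 4_b1 or 1_b2, refed 1_b1, 2_b1 or 1_b2, adjusted p 0.0532 to 0.164). Gpam, which starts glycerolipid synthesis, rose by 1.43 (adjusted p = 0.000239), with a fasted range of 44.5 to 60.5 CPM and a refed range of 80.5 to 255 CPM.

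Of 20 genes of amino acid catabolism and the urea cycle 8 fell and 3 rose (median −0.23), and 9 fell and 4 rose without the 2 libraries that stood apart. Slc7a2, a carrier of cationic amino acids, measured 1824, 1093, 2006, 1262 and 832 CPM in fasted and 729, 247, 236, 204 and 298 CPM in refed libraries. Refed 1_b1 was the highest refed library and lay just under the lowest fasted one. The fall was 1.79 on the log2 scale (SE 0.291, adjusted p = 9.53e-05). Sds, serine dehydratase, fell by 1.53 (adjusted p = 0.000542), Tat, tyrosine aminotransferase, by 1.12 (adjusted p = 0.000720) and Tdo2, tryptophan dioxygenase, by 1.01 (adjusted p = 5.5e-05). The 3 that rose were Hal, Asrgl1 and Cbs. Cps1, the first enzyme of the urea cycle, stood at 0.01 and was not called.

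Of 17 autophagy genes 12 fell and none rose (median −0.36), and 10 fell and 1 rose without the 2 libraries that stood apart. Gabarapl1, a coat protein of autophagosomes, measured 284, 345, 316, 322 and 304 CPM in fasted and 130.5, 126, 136, 127 and 132 CPM in refed livers. It fell by 1.23 on the log2 scale (SE 0.0996, adjusted p = 3.19e-08) without overlap. Map1lc3b, which encodes LC3B, fell by 0.98 (adjusted p = 3.16e-08), and Ulk1, the kinase that starts autophagy, by 0.99 (adjusted p = 5.66e-06).

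Most genes of protein folding in the endoplasmic reticulum rose. Of 23 genes 19 rose and 2 fell (median 0.73), with the same counts without the 2 libraries that stood apart. Hspa5, the chaperone BiP, measured 508, 498, 499.5, 460.2 and 488 CPM in fasted and 899.7, 893, 1219, 1170 and 806 CPM in refed libraries. The fasted values were close together and all refed values above them, a rise of 1.03 on the log2 scale (SE 0.119, adjusted p = 1.49e-06). Sdf2l1, a partner of BiP in folding, went from 3.46, 3.49, 5.99, 7.07 and 3.88 CPM to 21.5, 24.5, 23.4, 23.5 and 12.3 CPM, with refed 3_b2 the lowest refed library. Sdf2l1 rose by 2.31 (adjusted p = 1.27e-05). Manf, a secreted stress protein, rose by 1.75 (adjusted p = 5.2e-08), the disulfide isomerase gene Pdia4 by 1.32 (adjusted p = 5.65e-08), Creld2 by 1.18 (adjusted p = 0.000138) and Xbp1, a factor of the unfolded protein response, by 0.85 (adjusted p = 2.12e-06). The 2 that fell were Atf6, a sensor of that response, at −0.50, and Herpud1, which serves degradation from the endoplasmic reticulum. Herpud1 fell by 1.65 on the log2 scale (SE 0.203, adjusted p = 4.02e-06), with a fasted range of 673 to 952 CPM and a refed range of 146 to 332 CPM without overlap.

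N-glycosylation genes were called higher more often than lower, with 14 of 22 higher and 2 lower (median 0.44). The lower ones, Alg1 and Alg14, were both lost without refed 1_b1, and 15 rose and 2 fell without the 2 libraries that stood apart. Gmppb, which makes the mannose donor GDP-mannose, measured 7.35, 6.54, 7.17, 6.68 and 7.88 CPM in fasted and 19.5, 20.7, 21.1, 23.5 and 20.6 CPM in refed libraries. Both groups were tight and did not overlap. It had the lowest p of all genes that rose by at least 2-fold with a mean of at least 3 log2 CPM, rising by 1.53 on the log2 scale (SE 0.0699, adjusted p = 2.83e-11). Ostc, a subunit of the oligosaccharyl transferase, rose by 1.10 (adjusted p = 1.12e-07), with a fasted range of 20.6 to 31.6 CPM and a refed range of 51.5 to 62.3 CPM.

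Among other genes of growth and synthesis, those of tRNA charging, nucleotide synthesis and tubulin were called higher more often than lower. Of 20 cytosolic tRNA synthetase genes 14 rose and none fell (median 0.28, 13 without the 2 libraries that stood apart), among them Aars by 0.47 (adjusted p = 0.000208), Iars by 0.44 (adjusted p = 7.26e-06) and Gars by 0.25 (adjusted p = 0.00603). Of 16 nucleotide synthesis genes 9 rose and 1 fell. Umps, the last enzyme of uridine monophosphate synthesis, measured 16.7, 17.2, 15.7, 16.5 and 19.3 CPM in fasted and 39.2, 42.5, 44.5, 40.8 and 38.6 CPM in refed livers, a rise of 1.21 (adjusted p = 3.55e-09) without overlap. Cad, the first enzyme of that pathway, rose by 1.18 (adjusted p = 5.05e-08). Of 10 measured tubulin genes 9 rose (median 0.68), and 7 without the 2 libraries. Tuba1c rose by 1.67 (adjusted p = 6.44e-09), Tubb2a by 1.36 (adjusted p = 0.000607) and Tuba4a by 1.04 (adjusted p = 2.07e-07). Tubulin genes share sequence, so the split among them is uncertain. Of 20 ribosome biogenesis genes 4 rose and 4 fell, with only 2 higher without fasted 1_b1, fasted 2_b1, refed 1_b2, refed 2_b2 or wild-type fasted 1_b2. Of 25 proteasome genes 7 rose. The medians of these 2 lists were 0.07 and 0.06, against 0.01 for all genes.

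Of 16 measured genes of the integrated stress response, which ATF4 carries when amino acids are short, 3 fell and 2 rose (median −0.13). Sesn2, an inhibitor of mTORC1, fell by 1.65 (adjusted p = 1.52e-05) and Trib3, a pseudokinase that restrains insulin signalling, by 1.24 (adjusted p = 5.77e-05). Atf4 rose by 0.45 (adjusted p = 0.00941), with the 2 groups overlapping at refed 1_b1. It was not called without refed 2_b1 (0.31, adjusted p = 0.0655), and no member rose there. Without fasted 3_b1 or refed 1_b1 1 member rose, and without wild-type fasted 1_b2 5 fell.

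Secreted signals of the liver moved in both directions, with 4 of 18 higher and 5 lower, or 5 and 3 without the 2 libraries that stood apart and 3 lower without refed 1_b1 alone. Angptl4, a fasting-induced inhibitor of lipoprotein lipase, measured 282, 312, 394, 470.0 and 338 CPM in fasted and 11.2, 43.2, 33.6, 37.7 and 66.1 CPM in refed libraries. It fell by 3.25 on the log2 scale (SE 0.350, adjusted p = 1.82e-06) without overlap. Gm6484, an older symbol of Angptl8, a feeding-induced inhibitor of lipoprotein lipase activity, went from 6.51, 9.06, 6.89, 11.8 and 16.6 CPM to 43.7, 158, 143, 178 and 81.1 CPM. It rose by 3.40 on the log2 scale (SE 0.433, adjusted p = 1.17e-05), and refed 1_b1 was again the lowest refed library. Fgf21, a fasting hormone, fell by 2.06 (adjusted p = 0.000905), with a fasted range of 2.46 to 6.98 CPM and a refed range of 0.390 to 1.95 CPM. Leap2, which blocks the ghrelin receptor, rose by 1.37 (adjusted p = 8.73e-05), with fasted 1_b2 above refed 1_b1. Inhba, an activin subunit, rose by 1.83 (adjusted p = 5.11e-06). Igfbp2 fell by 0.63 (adjusted p = 0.0227), and was not called without fasted 4_b1 (adjusted p = 0.0554) or refed 1_b1 (0.0783).

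Of 14 bile acid genes 6 rose and 2 fell, or 4 and 2 without the 2 libraries that stood apart. Cyp7a1, the rate-limiting enzyme of bile acid synthesis, measured 115, 72.7, 57.99, 19.4 and 58.3 CPM in fasted and 309.6, 109, 143, 118 and 98.5 CPM in refed livers. The groups overlapped, and refed 1_b1 was far above the rest. The rise of 1.28 (adjusted p = 0.0326) became 0.68 (adjusted p = 0.254) without refed 1_b1, and it was also not called without fasted 3_b1, 4_b1 or 1_b2 (adjusted p 0.0547 to 0.0741). Abcb4, the canalicular phospholipid flippase, fell by 0.96 (adjusted p = 5.1e-06) without overlap.

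Clock genes changed in several parts of the loop. Of 18 genes 10 fell and 4 rose (median −0.42), with the same counts without the 2 libraries that stood apart. All livers were collected in 1 window of Zeitgeber time, and no time course was measured. Nr1d1, the repressor REV-ERB alpha, measured 9.33, 15.8, 9.13, 13.01 and 11.7 CPM in fasted and 3.23, 2.22, 3.92, 3.72 and 4.94 CPM in refed libraries. It fell by 1.96 on the log2 scale (SE 0.399, adjusted p = 0.000798) without overlap. Dbp, an output factor of the clock, fell by 1.25 (adjusted p = 0.00179), and Usp2, a deubiquitinase with a rhythmic transcript, by 1.68 (adjusted p = 6.77e-09). On the activator side, Npas2 rose by 2.84 (adjusted p = 0.00117), though at only 0.0516 to 0.231 CPM in fasted and 0.218 to 2.26 CPM in refed libraries, with overlap. The rise of Npas2 was 1.80 without refed 2_b1 and 3.70 without fasted 1_b2, 3.79 in batch 1 alone and 1.04 (adjusted p = 0.299) in batch 2 alone. Arntl, which encodes BMAL1, rose by 0.57 (adjusted p = 0.0209), and was not called without refed 2_b1 (0.55, adjusted p = 0.0535). Per2 rose by 0.57 (adjusted p = 0.000797), the opposite direction to Per1. Without refed 2_b1 2 genes of the list rose in place of 4.

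The rule for named genes also took genes outside these lists. Among those of lowest p, Slc41a2, a magnesium transporter, measured 10.8, 11.5, 9.03, 9.05 and 11.2 CPM in fasted and 56.97, 58.5, 46.9, 40.1 and 42.3 CPM in refed libraries, a rise of 2.29 (adjusted p = 1.28e-09) without overlap. Eif4b, a translation initiation factor, went from 367, 376, 388, 346 and 332 CPM to 169, 177, 172, 166 and 176 CPM. It fell by 1.04 on the log2 scale (SE 0.0586, adjusted p = 7.86e-10), the lowest p of all genes that fell by at least 2-fold at that level. Zfp259, an older symbol of the zinc finger gene Zpr1, fell by 2.03 (adjusted p = 6.44e-09), with a fasted range of 166 to 210.2 CPM and a refed range of 38.8 to 58.99 CPM. Klhl21 fell by 1.53 (adjusted p = 6.32e-09) and Rnf169, a ubiquitin ligase of the DNA damage response, by 1.06 (adjusted p = 1.77e-08). Anks4b rose by 1.29 (adjusted p = 2.4e-09), Hdhd3 by 2.06 (adjusted p = 7.5e-09) and Oasl1, an interferon-inducible gene, by 2.27 (adjusted p = 2.27e-09).

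Among the largest changes without overlap, Aqp8, a water channel of bile canaliculi, measured 8.88, 19.1, 11.2, 10.03 and 26.6 CPM in fasted and 33.8, 191, 156, 180.5 and 124 CPM in refed libraries. Refed 1_b1 was the lowest refed library and fasted 1_b2 the highest fasted one, and the rise was 2.97 (adjusted p = 6.12e-05), or 2.37 without refed 2_b1. Zbtb7c rose by 3.67 (adjusted p = 9.06e-07), with a fasted range of 0.284 to 0.649 CPM and a refed range of 3.14 to 9.07 CPM, and Fam83f by 2.88 (adjusted p = 1.89e-06). Fam107a went from 15.4, 5.82, 36.7, 30.6 and 6.45 CPM to 0.316, 0.264, 0.0949, 0.0764 and 0.153 CPM, and fell by 6.05 on the log2 scale (SE 0.750, adjusted p = 8.74e-06). Rgs16, a regulator of G protein signalling, fell by 4.11 (adjusted p = 0.00404), with a fasted range of 33.3 to 136 CPM and a refed range of 0.928 to 15.99 CPM, with refed 2_b2 and 3_b2 the highest refed libraries. The change of Rgs16 was −6.07 in batch 1 alone and −2.01 (adjusted p = 0.273) in batch 2 alone, −3.50 without refed 1_b1 and −4.82 without fasted 1_b2.

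Interferon-stimulated genes lay higher after refeeding: 8 of 13 rose and none fell (median 0.74), also without the 2 libraries that stood apart. Ifit1, which binds foreign RNA, measured 3.86, 3.89, 3.66, 3.10 and 3.14 CPM in fasted and 12.5, 6.70, 9.23, 8.54 and 10.01 CPM in refed libraries, a rise of 1.36 (adjusted p = 2.66e-05) without overlap. Isg15, a ubiquitin-like modifier, rose by 1.17 (adjusted p = 2.17e-05). Macrophage markers summed to 98.1 to 127 CPM in fasted and 93.0 to 193.9 CPM in refed libraries (93.0 to 123.4 CPM without refed 1_b1), and 0 of 10 were called. Of 7 measured lymphocyte markers 1 rose, Cd4 at 1.03, and 3 without fasted 1_b1. The part of these cells in the interferon genes was not tested.

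Sex-biased genes of the liver, which follow the pattern of growth hormone secretion, were read because all mice were male. Of 16 male-biased genes 4 rose and none fell, and of 10 measured female-biased genes 4 fell and none rose. Over all genes tested 19.6% rose and 20.3% fell, so the male-biased count is near the background. In batch 1 alone 3 male-biased genes rose and 1 fell. The male-biased median was 0.09 in batch 1 and 0.76 in batch 2, which holds 1 fasted K556R library. Hsd3b5, a steroid dehydrogenase of male liver, measured 22.9, 62.8, 61.9, 45.8 and 16.7 CPM in fasted and 63.05, 171, 119, 106 and 173 CPM in refed livers. The groups met between fasted 2_b1 and refed 1_b1 without overlapping, and the rise was 1.69 (adjusted p = 0.00300). Nudt7, a peroxisomal enzyme that degrades coenzyme A, rose by 1.99 on the log2 scale (SE 0.293, adjusted p = 3.73e-05), with a fasted range of 145 to 211 CPM and a refed range of 617 to 799 CPM. Cux2, a repressor found in female liver, fell by 1.32 (adjusted p = 0.00773) at only 0.187 to 0.916 CPM in fasted livers, and was not called without fasted 1_b2 (adjusted p = 0.0645). The female-biased count was 2 without that library. Selenbp2 stood at 0.56 (adjusted p = 0.511).

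Of 14 measured proliferation genes 7 rose and 1 fell, and this count moved with single libraries. Without refed 1_b1 none rose and 3 fell, and 4 rose without fasted 2_b1, 3_b1 or 4_b1. Without the 2 libraries that stood apart 2 rose and 3 fell, with a median of 0.06 in place of 0.77. Mcm5, a subunit of the replicative helicase, measured 2.60, 0.872, 0.568, 0.644 and 1.03 CPM in fasted and 12.9, 0.856, 1.69, 1.26 and 1.31 CPM in refed libraries. Refed 1_b1 was alone in being high, and the change of 1.77 (adjusted p = 0.0293) became 0.11 (adjusted p = 0.867) without it. Mcm5 was also not called without fasted 2_b1, 3_b1 or 4_b1 (adjusted p 0.0627 to 0.07). Mcm2 stood at 1.73 and at 0.70 without refed 1_b1 (adjusted p = 0.0739). Ccnd1, cyclin D1, stood at 1.39 and at 0.35 (adjusted p = 0.528) without it, and was not called without fasted 2_b1, 3_b1, 4_b1 or 1_b2 either (adjusted p 0.0529 to 0.0691).

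Immediate early genes, which respond within minutes to stimuli and to tissue handling, summed to 124.6 to 208.8 CPM in fasted and 71.6 to 103.9 CPM in refed libraries. Of 11 measured 5 fell, and 3 when refed 2_b1, refed 1_b2 or wild type refed 1_b2 was left out. Jun, a subunit of AP-1, fell by 1.62 (adjusted p = 0.00100). Of 14 acute-phase genes 4 fell and none rose, and 2 fell without fasted 1_b2. Of 15 NRF2 targets 4 rose and 1 fell.

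Of 13 measured hepatocyte markers 5 fell, and 3 without refed 1_b1 and 2 without fasted 1_b2. Hnf4a, a master factor of hepatocyte identity, measured 958, 1022, 1042, 1058 and 1007 CPM in fasted and 588, 569, 569, 535 and 560.1 CPM in refed libraries, a fall of 0.80 (adjusted p = 7.18e-08) without overlap. Cyp2e1, a cytochrome of pericentral hepatocytes, fell by 0.81 (adjusted p = 0.00103). Albumin, Alb, measured 97730 to 107500 CPM in fasted and 76090 to 88680 CPM in refed libraries, a fall of 0.30 (adjusted p = 0.0149) that was not called without fasted 1_b2 (adjusted p = 0.0606). Endothelial markers fell in 4 of 9, and in 2 without refed 2_b1. Lyve1, a receptor of sinusoidal endothelium, fell by 0.87 (adjusted p = 0.0175), and was not called without refed 2_b1 (−0.65, adjusted p = 0.0761). Their summed level was 158.5 to 184.9 CPM in fasted and 128.6 to 164.9 CPM in refed libraries. Of 11 stellate markers 2 rose and 1 fell, the latter, Ecm1, called no more without fasted 1_b1 or 4_b1, refed 2_b2 or wild-type fasted or refed 1_b2. Col1a1, a fibrillar collagen, rose by 0.91 (adjusted p = 0.0300) and lost its call on removal of any 1 of 5 libraries (fasted 2_b1, 3_b1 or 1_b2, refed 1_b1 or 3_b2, adjusted p 0.0507 to 0.0774).

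The K556R response was set beside that of the wild type. The contrasts share no library, but they come from the same fit, with shared estimates of the batch effect and of the spread. They are thus not fully independent. In wild type 2904 genes rose (20.9%) and 3359 fell (24.2%). Called in both genotypes with the same sign were 4761 genes, 85.9% of the K556R calls and 76.0% of the wild-type calls, and none had opposite signs. Across the 13894 genes, which are not independent, the log2 fold changes had a Pearson's r of 0.875. The difference of the responses was tested for every gene, and 0 of 13894 passed in edgeR (0%). At an unadjusted p under 0.05 stood 553 genes (3.98%), and DESeq2 called 1. A p that misses the threshold does not show that the responses are alike.

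**Figure D5:**
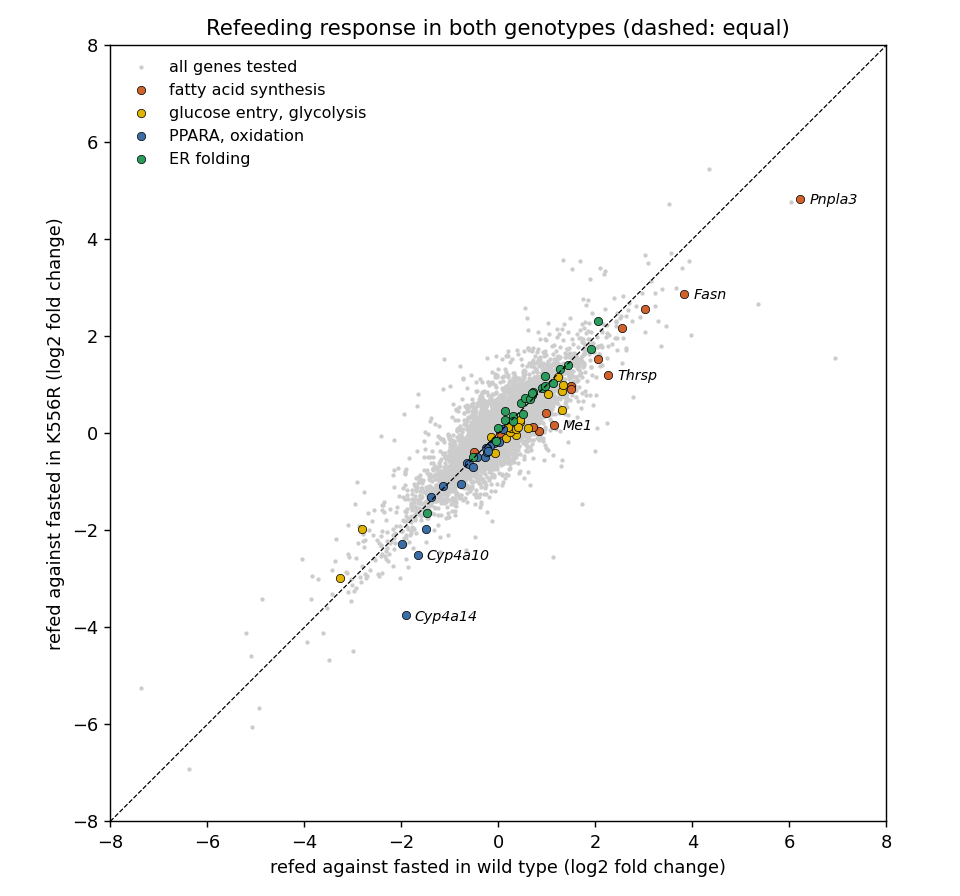
Log2 fold change of refed against fasted livers in K556R (vertical) against wild type (horizontal) for all genes tested, with members of 4 lists in colour and the dashed line where both are equal. Fasn lies at 2.88 in K556R and 3.84 in wild type, and Cyp4a14 at −3.75 and −1.91.

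The named differences are therefore values that did not pass the adjusted test. Over all genes tested the median difference was 0.02. Members of a list were measured in the same libraries and are not independent, so counts of members by sign are no test of genotype. The log2 fold change of fatty acid synthesis genes was lower in K556R for 14 of 15 members, with medians of 0.90 in K556R and 1.50 in wild type. Of the 15 differences, 8 had an unadjusted p under 0.05. Fasn differed by −0.96 (SE 0.370, unadjusted p = 0.0183), Thrsp by −1.06 (SE 0.332, unadjusted p = 0.00500), Scd1 by −0.57 (SE 0.166, unadjusted p = 0.00254) and Me1 by −0.97 (SE 0.270, unadjusted p = 0.00205). Refed 1_b1, which stood apart, was the lowest refed library for Fasn, Thrsp, Scd1 and Me1. Without it and fasted 1_b1 the differences were −0.64, −0.83, −0.60 and −0.80, and the median difference over the list moved from −0.57 to −0.48. In batch 1 alone the median difference was −0.78, with 13 of 15 lower in K556R, and in batch 2 alone −0.08, with 8 of 15 lower. The difference of Fasn was −1.36 in batch 1 and −0.08 in batch 2.

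In sterol synthesis 19 of 20 values were smaller in K556R, with a median difference of −0.27, and of −0.08 without the 2 libraries. In batch 1 alone 20 of 20 were smaller (median −0.49). In batch 2 alone, with 1 fasted K556R library and 1 wild-type library a group, only 1 of 20 was smaller, and the median difference was 0.44. There Idi1 went the other way at 1.36, against −0.27 over both batches. Sc4mol, an older symbol of the sterol oxidase gene Msmo1, did so too at 1.41, against −0.12.

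In the glycolysis list Pklr differed by −0.85 (SE 0.223, unadjusted p = 0.00118), and Pfkfb3, which fell in both genotypes, by 0.85 (SE 0.341, unadjusted p = 0.0236). Cyp4a14 fell by 3.75 in K556R and by 1.91 in wild type, a difference of −1.85 (SE 0.503, unadjusted p = 0.00193). The wild-type fasted libraries were uneven for Cyp4a14, at 1095, 1229, 418, 1255 and 243.7 CPM, against 198.5 to 270.4 CPM in wild-type refed libraries. Dak, an older symbol of the triokinase gene Tkfc that feeds fructose into glycolysis, measured 374, 392, 363, 399 and 557 CPM in fasted and 415, 548, 638, 834 and 730.3 CPM in refed K556R libraries. Dak rose by 0.40 (adjusted p = 0.00241) in K556R and by 1.01 in wild type. It had the lowest p of the difference among genes with a smaller value in K556R (−0.62, SE 0.131, unadjusted p = 0.000135). Nt5e, the ecto-5′-nucleotidase, differed by −0.83 (unadjusted p = 0.00166). Its rise in K556R, 0.42 (adjusted p = 0.0414), lost its call on removal of any 1 of 7 libraries (fasted 3_b1 or 4_b1, refed 1_b1, 1_b2 or 2_b2, wild type fasted or refed 1_b2, adjusted p 0.052 to 0.175).

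On the other side, the zinc finger gene Zfp236 fell by 0.25 in K556R and 0.64 in wild type, a difference of 0.39 (SE 0.0847, unadjusted p = 0.000186). Bdp1, a subunit of the initiation factor of RNA polymerase III, fell by 0.49 in K556R and 0.91 in wild type (unadjusted p of the difference = 0.00146). Spsb4, a substrate adaptor for ubiquitin ligases, rose by 2.16 in K556R and 1.21 in wild type (unadjusted p of the difference = 0.00177). Bid, a death agonist, rose by 0.28 in K556R and stood at −0.09 in wild type (unadjusted p of the difference = 0.00168). Lyn, a kinase of blood cells, stood at 0.03 in K556R and fell by 0.23 in wild type (unadjusted p of the difference = 0.00146). Among the sex-biased genes Hsd3b5 differed by 1.16 (unadjusted p = 0.0496) and Selenbp2 by 2.24 (unadjusted p = 0.0144). Wild-type fasted libraries were uneven for Selenbp2, at 145.2, 320.7, 1537, 608.9 and 382.4 CPM. Its refed means were close, 187.8 for wild type against 177.6 for K556R. Hsd3b5 means were 103.5 (wild type) against 42.04 (K556R) when fasted, and 151.5 against 126.4 when refed. For both genes the genotypes thus lay further apart when fasted than when refed. The male-biased list had 13 of 16 values higher in K556R. Its median difference was 0.45 in batch 1, with 6 values lower in K556R, and 0.81 in batch 2, with 1 lower. Of the interferon list, 12 of 13 values were higher in K556R, with medians of 0.74 in K556R and 0.31 in wild type. The median difference of that list was 0.32 without the 2 libraries that stood apart. It was 0.44 in batch 1, with 0 values lower in K556R, and 0.41 in batch 2, with 3 lower. All 10 macrophage markers had a higher value in K556R as well, with a median difference of 0.62, or 0.38 without the 2 libraries that stood apart. The median difference of these markers was 0.85 in batch 1 and 0.20 in batch 2. In wild type they summed to 295.6 CPM in fasted 2_b1, a batch 1 library, against 55.0 to 123 CPM in the other fasted libraries. The part of the macrophage markers in the interferon values was not tested.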

How the data were processed

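RNA sequencing read counts per gene were deposited by the authors as 1 table of 29915 gene symbols and 20 libraries, all of whose columns were used. Per the labels' protocols, poly-T captured mRNA was primed with random hexamers. The labels name both a directional and a non-directional second strand, so reads of overlapping genes on opposite strands may be mixed. Build mm10 and the tools edgeR, DESeq2, HTSeq, STAR, STAR-Fusion and TopHat are named, per the submitters' processing notes. Which of them made the counts, with which annotation and rule for shared reads, is not given in the sources used here.

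The deposited counts went into the quasi-likelihood F test of edgeR 4.0.16 in R 4.3.3, with robust dispersion estimates, filterByExpr (minimum count 10, minimum total 15), TMM normalization and Benjamini-Hochberg adjustment over 13894 genes, threshold 0.05. All 20 libraries were fitted with group and an additive batch term. Contrasts were refed against fasted in K556R and in wild type, and their difference. CPM carry no batch adjustment, while log2 fold changes do. SE is that of the log2 fold change. The test was tried on simulated counts. No 2 libraries of a K556R group agreed within sampling noise (lowest chi-square per degree of freedom 11.9). Depth was 33746054 to 50647297 counts per library.

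The 40 gene lists held 598 genes, of which 584 matched by symbol, 10 by an older symbol and 4 not. Named are the 8 genes of lowest p in each direction with at least a 2-fold change (mean 3 log2 CPM or more), the 5 largest changes in each direction without overlap at a mean of 1 log2 CPM or more, the 5 lowest p of the difference in each direction, listed genes chosen by list, and Prox1. Clone names and pseudogenes were left out, and some listed genes are not reported here. Members, lists and rules were chosen with earlier results of these data known. Positions are from GENCODE M21, promoters from RefSeq. The alternatives tried were DESeq2 1.42.0, limma 3.58.1 with sample quality weights, upper-quartile or RLE scaling, no filter or a stricter one (CPM of 1 in 5 libraries), no batch term, each batch alone, the 10 K556R libraries alone, a replicate block, no robust estimates, each library left out, and the 2 libraries 1_b1 of K556R left out together.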

Additional observations from a re-analysis of the deposited data

Results flagged for a closer look

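Within each K556R group of 5 libraries, the gap between the most extreme library and its neighbour was divided by the range of the group, and a ratio above 0.71 was taken as a library far from the others. The values carry no batch adjustment and the genes share libraries, so no rate expected by chance is set beside the count. The ratio passed in 29 of 294 groups of values. Refed 1_b1 accounted for 12 of these and fasted 1_b2 for 7.

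Refed 1_b1 was far above the other refed libraries for Ccnd1 (0.901), Mcm2 (0.861), Mcm5 (0.931), Cyp7a1 (0.789), Got1 (0.798), Slc7a2 (0.82) and Lyve1 (0.797), and far below them for G0s2 (0.774) and Plin2 (0.746). Its summed levels of proliferation genes (0.931), lymphocyte markers (0.845) and neutrophil markers (0.738) were also far above. Fasted 1_b1 was far above the other fasted libraries for Ccnd1 (0.885), Mcm5 (0.774) and the summed lymphocyte markers (0.733), and below them for Lyn (0.71). The cause was not tested.

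Fasted 1_b2, the only fasted K556R library of batch 2, was far above the others for Anks4b (0.856), Cidec (0.762), Dak (0.816), Gars (0.718), Hdhd3 (0.826), Leap2 (0.846) and Scd1 (0.779). With 1 library, its batch and the library itself cannot be told apart. Refed 2_b1 was far above for Hmgcs1 (0.832), Npas2 (0.798), Tuba4a (0.841) and Zbtb16 (0.864). Usp2 was far above in fasted 3_b1 (0.856), and Sdf2l1 far below in refed 3_b2 (0.755).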

How the results depend on the processing

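Outside batch 2, the K556R counts of 2728 higher and 2815 lower genes stayed within 1.5 times under each alternative: 3277 and 2346 with upper-quartile scaling, 2843 and 2881 with DESeq2, 2563 and 2577 with limma, 2803 and 2436 with no filter. Leaving out 1 library gave 2520 to 2915 higher and 2352 to 2837 lower, 5631 to 6606 calls in wild type (6803 without the 2 libraries that stood apart) and 0 differences. In batch 2 alone 1355 rose and 1347 fell in K556R, 1144 were called in wild type, where each group had 1 library, and 21 for the difference. DESeq2 called 1 difference, Dak (−0.63, adjusted p = 0.0366). The cause was not tested.

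Of 135 named genes 132 were called, and 117 of these were called whichever 1 library was left out. In batch 2 alone 32 and in batch 1 alone 13 of them lost their call with the same direction. Directions turned for Lyn without the 2 libraries that stood apart (−0.001023), for Me1 (−0.15) and Selenbp2 (−0.29) in batch 1, and, among the differences between genotypes named in the text, for Acly (0.20), Elovl6 (0.26), Idi1 (1.36) and Sc4mol (1.41) in batch 2 and for Sc4mol without wild-type fasted 1_b1 or K556R fasted 3_b1, within a range of −0.34 to 0.0766 on leaving out 1 library. Of 24 pairs of same-numbered libraries 6 deviated together (r over 0.1; range −0.401 to 0.72, median −0.119). The highest was K556R fasted 1_b1 with refed 1_b1, the 2 libraries that stood apart. Since not every pair did, the numbers were not taken to pair samples. With the replicate block 2243 genes rose and 2268 fell, and 8 of the named genes lost their call.

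Few counts limit the precision of some genes. Hmgcs1 and Npas2 lay under 1 CPM in every fasted library, as did Hspa1a in 4 of 5.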

Other observations

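The groups of genes described here were chosen after the values were seen, so no test was made of a group, and the p-values are those of single genes in the fit of all genes. Of 18 genes of the actin cytoskeleton 11 rose and none fell (median 0.26), with 9 higher without the 2 libraries that stood apart. Actg1, cytoplasmic gamma actin, measured 20.4, 19.4, 15.6, 20.1 and 21.5 CPM in fasted and 77.1, 129.6, 147, 141 and 111 CPM in refed K556R libraries. All refed libraries were above the fasted ones, and the rise was 2.56 on the log2 scale (SE 0.180, adjusted p = 1.13e-08). Actb, cytoplasmic beta actin, often used as a reference gene, went from 134, 135, 125, 153 and 139 CPM to 257, 582, 462, 434 and 429 CPM. It rose by 1.66 (adjusted p = 3.15e-07) without overlap, and by 1.56 in wild type.

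Cytosolic heat shock genes split, with 6 of 13 higher and 3 lower. Hsp90aa1, an inducible cytosolic chaperone, rose by 1.25 (adjusted p = 3.4e-06) from 130.0 to 186 to 291 to 482 CPM without overlap. Hspa1a, the stress-inducible HSP70, fell by 2.75 (adjusted p = 0.000158) from 0.297 to 1.38 to 0.0371 to 0.284 CPM. It is nearly identical to Hspa1b, so the value of either is uncertain. Of 76 measured genes of cytosolic ribosomal proteins 3 rose and 2 fell (median 0.05), and 8 rose without refed 1_b1, 5 without fasted 4_b1 and 1 without fasted 1_b2, while 1 fell without fasted 2_b1 or refed 2_b1. Of 19 genes of metal transport 8 rose and 5 fell (median −0.07).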
